A study of Mus musculus with 4 samples.

Results

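The Hox genes encode homeobox transcription factors, and 38 of them were followed here by cluster and paralogue number across the RNA-seq libraries of the series. The members were named as a gene family and not picked by their values, although earlier results of these data were known. Of the 38, 36 had at least 1 exon among the 22835 genes with matched exons, while the levels of Hoxb1 and Hoxb13 were not analysed here. Each condition had 1 library. MEF were wild-type mouse embryonic fibroblasts at passage 3. Dox (-) were untreated Mitf knock-in MEFs at passage 5. Dox (+) were the same kind of knock-in MEFs at passage 5 after 6 days of Dox, the drug that switches the transgene on. The knock-in cells carried the M2rtTA transactivator at ROSA26, M-Mitf (the melanocyte isoform of Mitf) under a TetO element at the Col1a1 locus, a constitutive mCherry and a puromycin resistance cassette, in both conditions. They came from KH2 embryonic stem cells of 1 targeted clone injected into BDF2 host blastocysts, and the fibroblasts were grown from the bodies of mid-gestation chimeric embryos, so host cells may remain where selection was incomplete. Primary mouse melanocytes (PMel) are part of the series and were not analysed here.

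Hox genes lie in 4 clusters, HoxA to HoxD, and the paralogue number of a gene follows its place along the cluster. In the embryo low numbers are switched on early and towards the head, and high numbers later and towards the tail or the tip of a limb. HOX proteins bind DNA together with PBX, MEIS and PKNOX cofactors. Fibroblasts taken from different body sites are known to keep a Hox pattern of their site in culture.

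In the mm10 build HoxA lies on chromosome 6, HoxB on chromosome 11, HoxC on chromosome 15 and HoxD on chromosome 2. Levels are exon RPKM (reads on an exon relative to its length and to the depth of the library), and the level of a gene is its highest exon. Ratios of reads were taken from reads recovered from the RPKM values and summed over exons of a gene that do not overlap each other. Their 95% intervals (exact, conditional on both counts) cover counting error only, because there was no replicate library, and no difference here has a replicate check. The depth was 45000000 reads in MEF and Dox (-) and 44000000 in Dox (+), at which 3 reads on an exon of 1 kb make 0.0667 RPKM in the first 2 libraries and 0.0682 RPKM in Dox (+). The highest exon was not the same in every library in 8 genes (Hoxa3, Hoxa9, Hoxb3, Hoxb6, Hoxb8, Hoxc4, Hoxc6 and Hoxd3). In 12 of the 36 genes the compared exon did not give whole reads within 0.02, since its length in the annotation used here is not that of the authors, and reads are then approximate. A gene was called different when either library showed more than 10 RPKM and the levels differed by over 4-fold.

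Mitf, the switched gene, had 1.52 RPKM in MEF, 30.8 in Dox (-) and 1544 in Dox (+). All 8 fibroblast markers exceeded 10 RPKM in each of the 3 libraries. The library labelled MEF stood apart in that its values are not those the study tabulates under this name, so every comparison with it describes that library. Its Dcn level, for decorin of the fibroblast matrix, was 30.0 RPKM against 1637 in Dox (-) and 720 in Dox (+). Macrophage markers followed Dox (-). All 8 exceeded 10 RPKM there, against 2 in MEF and 4 in Dox (+), and their summed level was 12955 RPKM in Dox (-), 50.8 in MEF and 468 in Dox (+). Lyz2 alone ranged from 27.8 RPKM in MEF to 10820 in Dox (-). Fcgr1 was at 0 in MEF. The neural and glial list summed to 33.6, 138 and 38.4 RPKM in MEF, Dox (-) and Dox (+), and the epithelial list to 61.2, 9.54 and 33.6 RPKM. The melanocyte list summed to 5.90, 45.5 and 1808 RPKM, in which Tyr reached only 2.37 RPKM and Dct 0.900 RPKM in Dox (+). The endothelial list stayed between 4.94 and 14.9 RPKM, and in the muscle list only Des passed 10 RPKM, with Myod1 at 0 in Dox (-) and Dox (+). The part of these cell types in the Hox results was not tested, and in bulk RNA fewer cells of a type and less RNA per cell cannot be told apart.

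The 3 libraries differed in which Hox genes they expressed. Above 10 RPKM stood 5 of the 36 genes in MEF, 13 in Dox (-) and 9 in Dox (+). Above 1 RPKM stood 17, 32 and 29. The MEF genes above 10 RPKM were Hoxa2, Hoxa3, Hoxa5, Hoxa7 and Hoxb2, all of paralogue number 7 or lower, and without exons that overlap other genes only Hoxa3 and Hoxa5 stayed above 10 RPKM there. The highest level in MEF was that of Hoxa5 at 25.2 RPKM. In Dox (-) it was Hoxb9 at 29.6 RPKM, with Hoxc6 next at 27.4 RPKM. In Dox (+) Hoxb2 led with 24.8 RPKM, followed by Hoxb7 with 19.9 and Hoxc4 with 19.5 RPKM. The Hoxb2 level lies on an exon that Hoxb3os overlaps, and on its other exon Hoxb2 had 0.394, 0.433 and 1.29 RPKM in MEF, Dox (-) and Dox (+).

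**Figure D1:**
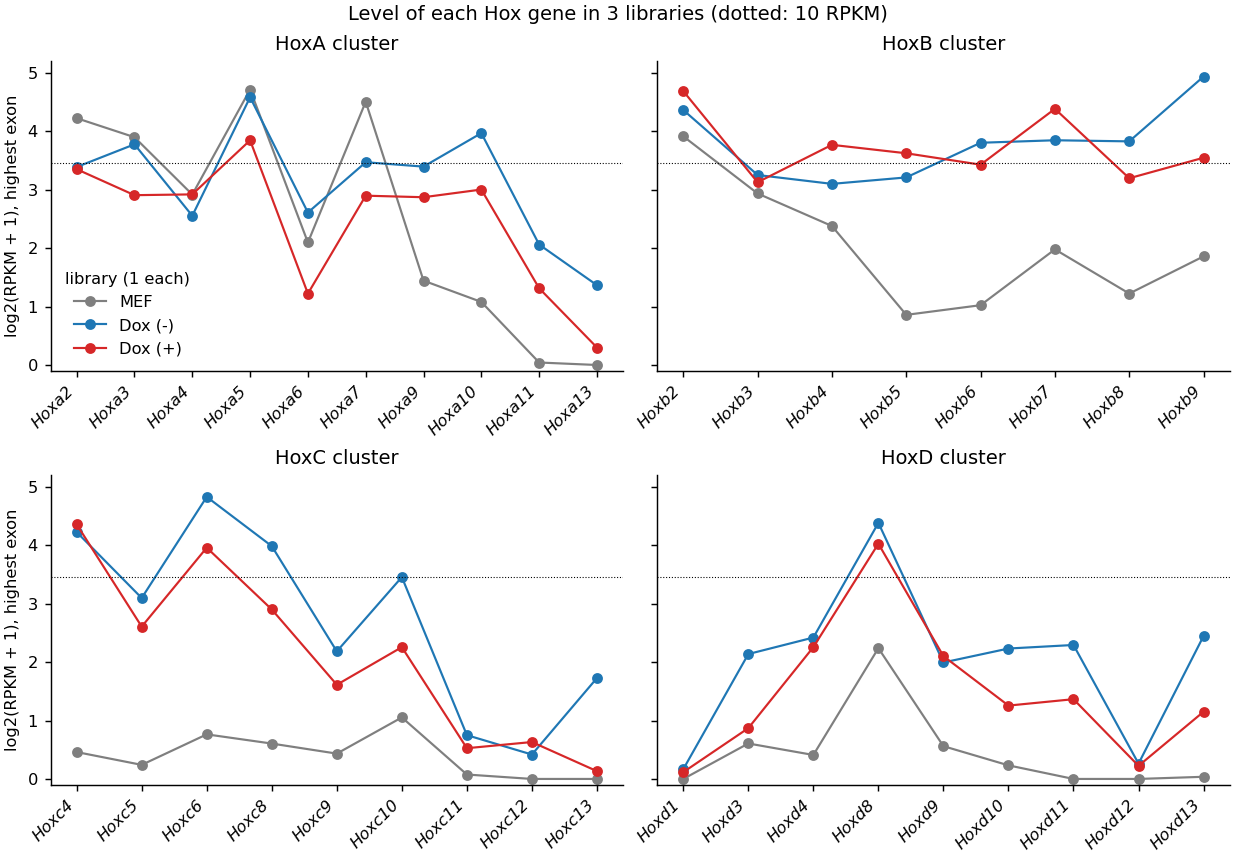
Level of the 36 Hox genes in the 3 libraries, 1 library per point, on a log2(RPKM + 1) axis and ordered by paralogue number within each cluster. The MEF line drops after Hoxa7 and after Hoxb4 and stays low along HoxC, where its highest level is 1.07 RPKM, while both knock-in lines stay high further along.

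The sum of all 36 levels was 133 RPKM in MEF, 334 in Dox (-) and 243 in Dox (+). HoxA gave 91.2, 94.1 and 58.4 RPKM of it, which is 68.4% in MEF, 28.1% in Dox (-) and 24.0% in Dox (+). HoxB gave 33.6, 113 and 105 RPKM. The 9 HoxC genes together gave only 3.25 RPKM in MEF, against 84.2 in Dox (-) and 52.5 in Dox (+). HoxD gave 5.24, 42.9 and 27.6 RPKM. HoxA thus made up most of the Hox signal in MEF, and HoxB the largest share in both knock-in libraries.

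By paralogue number, the 10 genes numbered 1 to 4 summed to 64.3 RPKM in MEF, 88.3 in Dox (-) and 91.5 in Dox (+). The 11 genes numbered 5 to 8 summed to 61.4, 155 and 112 RPKM. The 15 genes numbered 9 to 13 summed to 7.64, 90.5 and 40.3 RPKM. The last group held 5.73% of the summed level in MEF, 27.1% in Dox (-) and 16.5% in Dox (+).

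**Figure D2:**
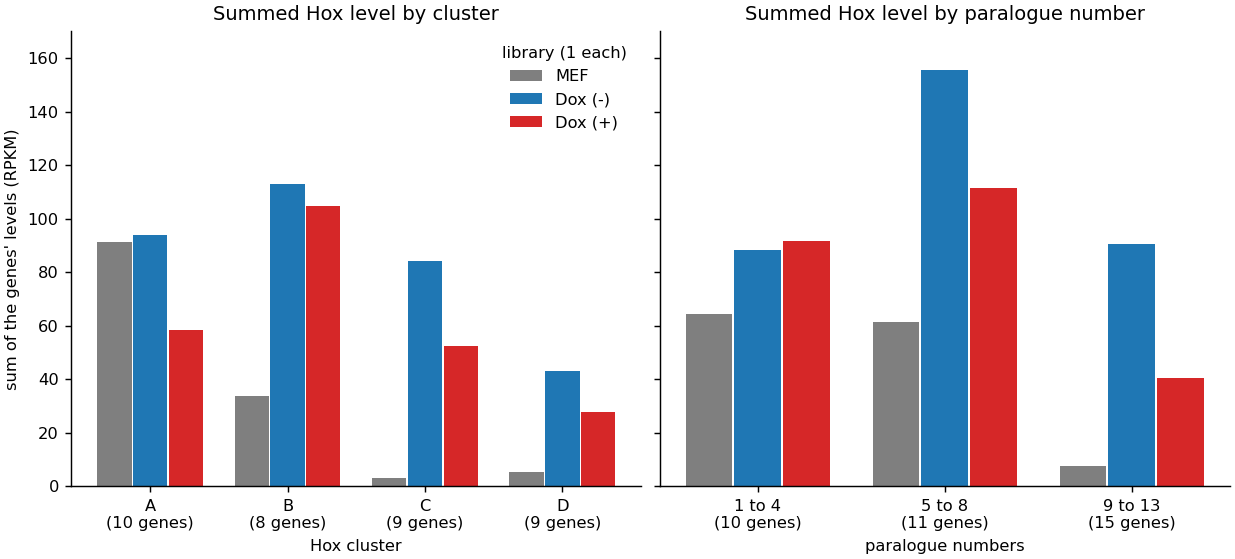
Sums of the Hox levels in RPKM, by cluster (left) and by paralogue number (right), with 1 bar per library and no error because each library stands alone. HoxA is alike in MEF and Dox (-), whereas HoxC and the numbers 9 to 13 are near the axis in MEF.

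The first comparison sets the Dox (-) library against the MEF library, where Mitf itself was 20.2-fold higher in Dox (-) than in MEF. Genotype, passage (5 against 3), embryo of origin and cell mix cannot be told apart in it. Of the 14 Hox genes above 10 RPKM in MEF or Dox (-), 9 were more than 4-fold higher in Dox (-) and 0 were lower. These were Hoxa10, Hoxb6, Hoxb7, Hoxb8, Hoxb9, Hoxc4, Hoxc6, Hoxc8 and Hoxd8. Over all genes tested by the same rule, 8.26% were higher and 1.21% lower. All 9 passed 10 RPKM through Dox (-) alone and could therefore only be higher there, and 0 of the 4 above 10 RPKM in both libraries passed 4-fold. With the level taken over all non-overlapping exons of a gene in place of its highest exon, 3 were higher (Hoxb9, Hoxc6 and Hoxc8), since fewer genes then exceeded 10 RPKM. With a threshold of 1 RPKM in place of 10, 23 of 32 Hox genes were higher and 0 lower, against a background of 12.9% higher and 2.04% lower. Of these 32 genes 15 passed that threshold through Dox (-) alone, and such genes could only be higher there. Among the 17 that exceeded 1 RPKM in both libraries, 12 were higher in Dox (-) and 5 lower, and by more than 4-fold 8 were higher (Hoxa9, Hoxa10, Hoxb6, Hoxb7, Hoxb8, Hoxb9, Hoxc10 and Hoxd8) and 0 lower. Without any threshold, the median log2 ratio of (RPKM + 1) was 1.81 over the 36 Hox genes and 0.06 over all genes.

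HoxA split along its length. Hoxa2, which patterns the hindbrain and branchial arches, had 17.7 RPKM in MEF, 9.46 in Dox (-) and 9.20 in Dox (+). Its reads were 1.81-fold lower in Dox (-) than in MEF (1.63 to 2.002). Most of this level lies on an exon shared with the read-through gene model Gm28308. On its other exon the values were 4.39, 3.10 and 3.37 RPKM. Hoxa5, which acts at the level of the neck and upper thorax and in the lung, was close in MEF and Dox (-), with 25.2 and 22.9 RPKM, and its reads differed 1.05-fold with an interval of 0.975 to 1.13. Hoxa7, a gene of the thoracic region, had 21.7 RPKM in MEF, 10.1 in Dox (-) and 6.45 in Dox (+). Its 1647 reads in MEF were 2.14-fold those in Dox (-) (1.96 to 2.33). The order was the reverse in the next gene along the cluster. Hoxa9 had 1.72, 9.52 and 6.31 RPKM, and its reads were 4.31-fold higher in Dox (-) than in MEF (3.47 to 5.38). Hoxa10, which acts in lumbar vertebrae and the uterus, had 1.11 RPKM in MEF, 14.6 in Dox (-) and 7.01 in Dox (+). From MEF to Dox (-) its reads went from 88 to 914, a 10.4-fold difference (8.34 to 13.1). Hoxa11, needed for the forearm and shank, had 2 reads in MEF and 253 in Dox (-), a ratio of 126.5 (34.7 to 1050.2). Hoxa13, needed for hand and foot, had 0 reads in MEF and 72 in Dox (-), at least 24.0-fold more when 3 reads are taken as the floor for MEF. In sum the 6 genes from Hoxa2 to Hoxa7 gave 88.3 RPKM in MEF and 65.1 in Dox (-), and the 4 from Hoxa9 to Hoxa13 gave 2.86 and 28.9 RPKM.

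Among the remaining HoxA genes, Hoxa3, which acts in thymus and parathyroid formation, had 13.9 RPKM in MEF, 12.7 in Dox (-) and 6.49 in Dox (+). These levels come from different exons, one of 1681 bases in MEF and one of 76 bases, shared with Gm28308 and Hoxaas3, in the knock-in libraries. On the longer exon, which Hoxaas2 overlaps and which holds most of the reads, the values were 13.9, 7.49 and 4.01 RPKM. By summed reads Hoxa3 was 1.64-fold lower in Dox (-) than in MEF (1.499 to 1.79), with 807 against 1321. An exon of 199 bases that overlaps no other gene had 88 reads in Dox (-) and 110 in MEF. That is 1.25-fold lower with an interval that includes equal reads (0.936 to 1.67). Hoxa4 had 6.55, 4.87 and 6.56 RPKM, mostly on an exon that overlaps the antisense model Gm29430. Hoxa6 was low throughout, at 3.28, 5.10 and 1.33 RPKM. Whether the authors counted reads by strand is not given in the sources used here, so reads of Hoxa7 and its antisense partner Hoxaas3 cannot be told apart. The same holds for Hoxa4, Hoxa3 (Hoxaas2), Hoxb2 and Hoxb3 (Hoxb3os) and Hoxb5 (Hoxb5os), on the exons that overlap.

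HoxB was split between Hoxb4 and Hoxb5. Hoxb2, a hindbrain gene, had 14.1 RPKM in MEF, 19.6 in Dox (-) and 24.8 in Dox (+). Hoxb3 had 6.64, 8.52 and 7.74 RPKM. Hoxb4, known for expanding blood stem cells, had 4.20, 7.57 and 12.6 RPKM. These neighbours differed less than 2-fold between MEF and Dox (-). Hoxb5, which sets the position of the shoulder, had 0.812 RPKM in MEF, 8.25 in Dox (-) and 11.3 in Dox (+). Its reads were 10.7-fold higher in Dox (-) than in MEF (7.97 to 14.5), on an exon that Hoxb5os overlaps. Hoxb6 had 1.03 RPKM in MEF and 12.95 in Dox (-), or 16.5-fold in reads (12.3 to 22.5). Hoxb7 had 2.94 and 13.4 RPKM, or 4.58-fold in reads (3.74 to 5.65). Hoxb8 had 1.33 RPKM in MEF, 13.2 in Dox (-) and 8.16 in Dox (+), and its reads in MEF and Dox (-) were 49 and 444. Hoxb9, which acts with its paralogues on the ribs, had 2.63 RPKM in MEF and 29.6 in Dox (-), with 233 and 2694 reads (ratio 11.6, interval 10.1 to 13.3). Together Hoxb2 to Hoxb4 gave 24.9 RPKM in MEF and 35.7 in Dox (-), and Hoxb5 to Hoxb9 gave 8.75 and 77.4 RPKM.

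The HoxC genes were low in MEF from end to end. Hoxc6, expressed from the forelimb level backwards, had 0.697 RPKM in MEF, 27.4 in Dox (-) and 14.5 in Dox (+). Its reads were 44 in MEF and 1852 in Dox (-), a 42.1-fold difference (31.2 to 58.1). Hoxc5 was 46.1-fold higher in reads (29.0 to 78.1), with 0.182 and 7.55 RPKM. Hoxc4 was 41.1-fold higher (25.5 to 70.9), with 17 and 698 reads. The level of Hoxc4 above 10 RPKM rests on an exon of 49 bases with 0 reads in MEF, 39 in Dox (-) and 42 in Dox (+). Hoxc8, which acts in thoracic vertebrae and motor neurons, had 0.521 RPKM in MEF, 14.8 in Dox (-) and 6.46 in Dox (+), and its reads were 31.0-fold higher in Dox (-) than in MEF (22.0 to 45.3). Hoxc9 had 0.350, 3.54 and 2.06 RPKM. Hoxc10, a gene of the lumbar region and hindlimb, had 1.07, 9.96 and 3.77 RPKM. Hoxc11 stayed under 1 RPKM in all 3 libraries, with 3, 49 and 32 reads, and so did Hoxc12, with 0, 5 and 10 reads. Hoxc13, needed for hair and nails, had 0 reads in MEF and 181 in Dox (-), at least 60.3-fold more.

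In HoxD the highest gene was Hoxd8, with 3.72 RPKM in MEF, 19.8 in Dox (-) and 15.3 in Dox (+). Its reads were 5.81-fold higher in Dox (-) than in MEF (4.93 to 6.89). Hoxd3 had 0.523, 3.40 and 0.826 RPKM. Hoxd4 had 0.329, 4.35 and 3.78 RPKM, on an exon shared with the read-through model Gm28230. Hoxd9 had 0.475, 2.98 and 3.29 RPKM. Hoxd10 had 0.175, 3.70 and 1.39 RPKM, and Hoxd11 0, 3.90 and 1.58 RPKM, both on exons that Gm28309 also covers. Hoxd13, which with Hoxa13 builds the digits, had 2 reads in MEF, 431 in Dox (-) and 110 in Dox (+). Its level in Dox (-), 4.45 RPKM, was the highest among the paralogues numbered 11 to 13. Hoxd12 had 0, 17 and 14 reads, and Hoxd1 0, 6 and 4 reads, which is near the floor in every library.

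Some HoxD promoters carry an E-box and are shown here because MITF, the factor that Dox switches on, is a basic helix-loop-helix protein known to bind E-boxes. RefSeq start sites on GRCm38.p6 gave windows of 300 bases, 250 before and 50 after the start, for 21 of the 36 genes (23 windows). In HoxB only Hoxb4 and Hoxb8 had a window and in HoxC only Hoxc4, so those clusters were hardly covered. The palindrome CACGTG occurred in 5 of the 23 windows (21.7%) and in 7.15% of the 32851 windows of all genes. The variant CATGTG, read on both strands, occurred in 4 (17.4%) and in 14.2% of all windows. These shares were not matched for CpG content, and CACGTG itself contains a CpG. The 5 windows with CACGTG belonged to Hoxd1, Hoxd4, Hoxd10, Hoxd11 and Hoxd13, and those whose gene exceeded 1 RPKM in at least 1 library are printed, all on the plus strand, with both E-box forms in capitals. Hoxd4 lies at chr2:74721728-74722027, Hoxd10 at chr2:74691641-74691940, Hoxd11 (the downstream of its windows) at chr2:74682073-74682372 and Hoxd13 at chr2:74667975-74668274.
Hoxd4: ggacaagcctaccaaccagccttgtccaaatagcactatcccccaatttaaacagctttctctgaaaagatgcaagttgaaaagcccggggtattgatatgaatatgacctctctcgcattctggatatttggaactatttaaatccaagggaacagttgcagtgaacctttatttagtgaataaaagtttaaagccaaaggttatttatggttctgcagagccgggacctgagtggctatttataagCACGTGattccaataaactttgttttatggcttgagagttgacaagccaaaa
Hoxd10: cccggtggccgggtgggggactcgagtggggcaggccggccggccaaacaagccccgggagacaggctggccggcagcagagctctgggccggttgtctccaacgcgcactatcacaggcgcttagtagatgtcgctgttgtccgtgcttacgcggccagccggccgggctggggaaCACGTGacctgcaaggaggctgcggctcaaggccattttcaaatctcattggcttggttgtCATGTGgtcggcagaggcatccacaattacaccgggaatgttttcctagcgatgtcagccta
Hoxd11: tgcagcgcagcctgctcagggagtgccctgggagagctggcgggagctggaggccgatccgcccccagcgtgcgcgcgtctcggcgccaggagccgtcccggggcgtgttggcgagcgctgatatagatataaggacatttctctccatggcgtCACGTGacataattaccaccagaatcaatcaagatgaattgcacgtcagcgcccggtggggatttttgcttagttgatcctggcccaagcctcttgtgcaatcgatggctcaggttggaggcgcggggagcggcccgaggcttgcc
Hoxd13: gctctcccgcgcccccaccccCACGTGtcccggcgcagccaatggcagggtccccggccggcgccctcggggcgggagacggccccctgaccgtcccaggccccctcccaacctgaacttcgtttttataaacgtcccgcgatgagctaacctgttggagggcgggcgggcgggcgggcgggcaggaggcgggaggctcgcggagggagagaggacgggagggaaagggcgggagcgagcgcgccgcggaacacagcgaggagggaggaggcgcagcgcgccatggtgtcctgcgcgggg
The CACGTG begins 2 bases before the start site in Hoxd4, 73 in Hoxd10, 96 in Hoxd11 and 229 in Hoxd13, and Hoxd10 has a CATGTG 12 bases before its start. CpG dinucleotides numbered 4, 22, 25 and 37 in the same order, against a median of 15 over the Hox windows and 7 over all windows. Whether any protein bound these letters was not measured. From Dox (-) to Dox (+) the reads of these genes were lower, 1.40-fold in Hoxd4 (1.15 to 1.70), 2.54-fold in Hoxd10 (1.96 to 3.32), 2.49-fold in Hoxd11 (1.496 to 4.28) and 3.83-fold in Hoxd13 (3.10 to 4.77). HoxD genes without the palindrome in their window included Hoxd3, whose window holds the variant CATGTG and whose reads were 3.90-fold lower (3.00 to 5.12). With neither form, Hoxd8 was 1.57-fold lower (1.42 to 1.74) and Hoxd9 1.10-fold higher (0.871 to 1.39). Outside HoxD, Hoxa13 and Hoxa6 also had neither form and were 7.04-fold (3.62 to 15.3) and 3.43-fold lower (2.41 to 4.99). Hoxb4, with neither form, was 1.57-fold higher (1.42 to 1.74). A link between these motifs and the reads was not tested.

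The second comparison sets knock-in MEFs after 6 days of Dox against untreated knock-in MEFs. Mitf induction, Dox itself and differences between the cultures cannot be told apart in it. No Hox gene was called. Of the 15 above 10 RPKM in Dox (-) or Dox (+), 0 were more than 4-fold higher and 0 lower, where the background was 1.64% higher and 5.41% lower. At 1 RPKM 3 of 32 were more than 4-fold lower (Hoxa13, Hoxc13 and Hoxd3) and 0 higher, where the background was 8.3% lower and 2.74% higher. These 3 exceeded 1 RPKM in Dox (-) alone and could only be lower in Dox (+). The Hoxd3 levels, 4.11-fold apart, come from different exons, of 85 bases in Dox (-) and of 275 bases, shared with Gm28230, in Dox (+). By its summed reads Hoxd3 was 3.90-fold lower (3.00 to 5.12), which is under 4-fold. Of the 29 genes above 1 RPKM in both libraries 0 passed 4-fold. At 10 RPKM and 2-fold 3 were lower (Hoxa10, Hoxb9 and Hoxc8) and 0 higher, against 11.1% and 10.8%, and of these only Hoxb9 exceeded 10 RPKM in both libraries. At 1 RPKM and 2-fold 12 of 32 were lower and 0 higher, against 16.3% lower and 11.7% higher over all genes, and 9 of the 12 exceeded 1 RPKM in both libraries. Over the 36 Hox genes with no threshold 28 were lower and 8 higher in Dox (+), with a median log2 ratio of -0.55, where all genes had 0.01. Of the 77 Hox exons with more than 10 reads in at least 1 of these 2 libraries, after overlapping exons had been reduced to a single one, 62 were lower in Dox (+) and 15 higher. Over the 151559 such exons of all genes 43.3% were lower and 56.7% higher.

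**Figure D3:**
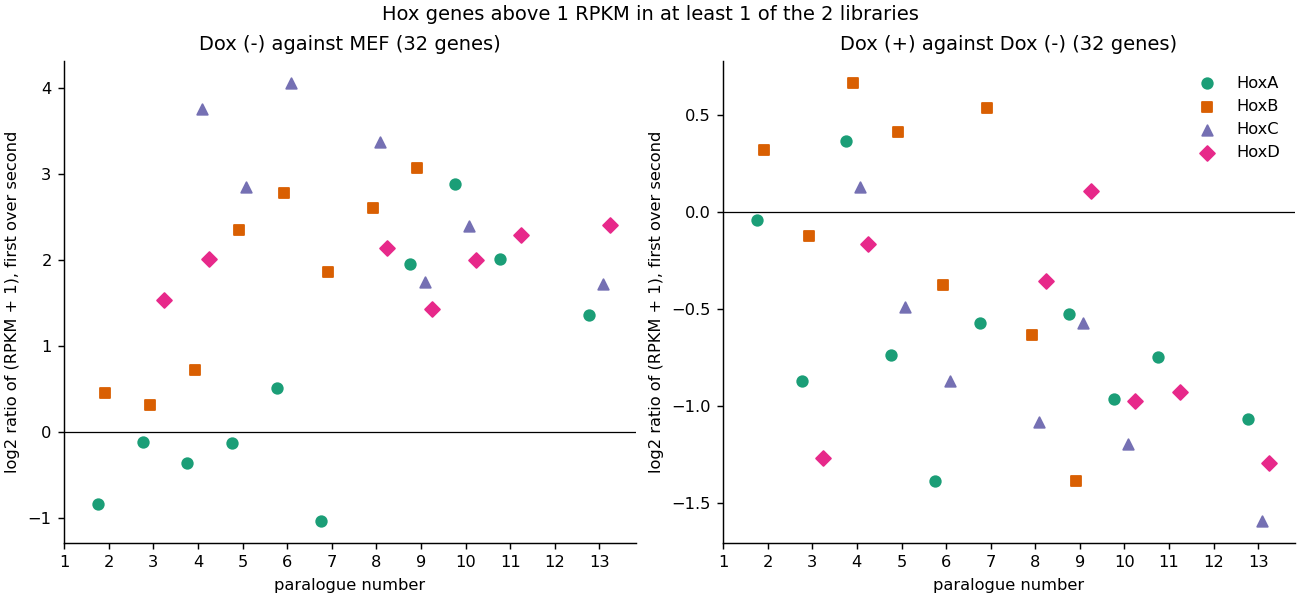
Log2 ratio of (RPKM + 1) against paralogue number for the Hox genes that exceeded 1 RPKM in either library, Dox (-) against MEF on the left and Dox (+) against Dox (-) on the right, with 1 point per gene and the cluster as colour and shape. On the left Hoxa2 to Hoxa5 and Hoxa7 lie below 0 and the other genes above it, while on the right the points sink towards high numbers.

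The differences between Dox (+) and Dox (-) were graded along the clusters. Spearman's rho between the log2 ratio and paralogue number was -0.56 over the 32 genes above 1 RPKM, a description over genes that share 2 libraries and whose neighbours are not independent. The 3 genes above 1 RPKM in Dox (-) alone, 2 of them numbered 13, could only be lower, and over the 29 genes above 1 RPKM in both libraries rho was -0.60. The same coefficient was 0.36 for Dox (-) against MEF (32 genes), of which 15 could only be higher in Dox (-), and 0.71 over the 17 genes above 1 RPKM in both. Of the 9 genes numbered 1 to 4 in this set 4 were higher in Dox (+) and 5 lower, of the 11 numbered 5 to 8, 2 were higher and 9 lower, and of the 12 numbered 9 to 13, 1 was higher and 11 lower. With the 29 genes alone the counts were 4 higher and 4 lower, 2 higher and 9 lower, and 1 higher and 9 lower in the same order. The summed level of the group 1 to 4 was 91.5 RPKM in Dox (+) against 88.3 in Dox (-), that of the group 9 to 13 40.3 against 90.5.

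The 2 widest differences by reads lay at the posterior end. Hoxc13 had 181 reads in Dox (-) and 7 in Dox (+), 25.3-fold fewer (12.0 to 63.8). Hoxa13 had 72 and 10 reads, 7.04-fold fewer (3.62 to 15.3). With Hoxd13 at 431 and 110 reads, the 3 listed genes numbered 13 summed to 8.33 RPKM in Dox (-) and 1.55 in Dox (+). All 3 were at 2 reads or fewer in MEF. Hoxb9 had 29.6 RPKM in Dox (-) and 10.7 in Dox (+), with 3.16-fold fewer reads (2.92 to 3.42), and it was first among the Hox levels in Dox (-) only. Hoxc8 had 2.12-fold fewer reads in Dox (+) (1.90 to 2.37), Hoxc10 2.17-fold (1.90 to 2.50), Hoxa10 2.14-fold (1.91 to 2.41) and Hoxa11 2.13-fold (1.71 to 2.68). Hoxa9 depends on how it is read, being 1.51-fold lower by its highest exon, which is not the same exon in the 2 libraries, and 2.92-fold lower by its reads (2.42 to 3.54).

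In HoxB 4 genes went the other way. Hoxb4 had 638 reads in Dox (-) and 982 in Dox (+), 1.57-fold more (1.42 to 1.74). Hoxb7 had 1.51-fold more (1.35 to 1.69), Hoxb5 1.32-fold (1.18 to 1.48) and Hoxb2 1.29-fold (1.18 to 1.40). Hoxa4 was 1.25-fold higher (1.06 to 1.49). None of these differences reached 2-fold. Over expressed genes Dox (+) lay 0.22 above Dox (-) on the log2 scale. With this shift, a single value for every gene, taken off, the interval of Hoxa4 included equal reads (0.904 to 1.27), and those of Hoxb2 and Hoxb5 began at 1.01. Hoxd9 turned from higher to lower. The neighbours of Hoxb7 were lower in Dox (+), with Hoxb6 1.38-fold (1.24 to 1.54) and Hoxb8 2.13-fold (1.80 to 2.52) fewer reads. Hoxa2 and Hoxb3 had intervals that included equal reads, 1.01-fold lower (0.902 to 1.14) and 1.05-fold lower (0.965 to 1.15). With the same shift taken off, both of these intervals lay below equal reads. The ratios of Dox (+) over Dox (-) were then 0.845 in Hoxa2 (0.752 to 0.9496) and 0.813 in Hoxb3 (0.745 to 0.887). Hoxc4 was 1.10-fold higher by its level and 1.17-fold lower by its reads (1.05 to 1.31).

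**Figure D4:**
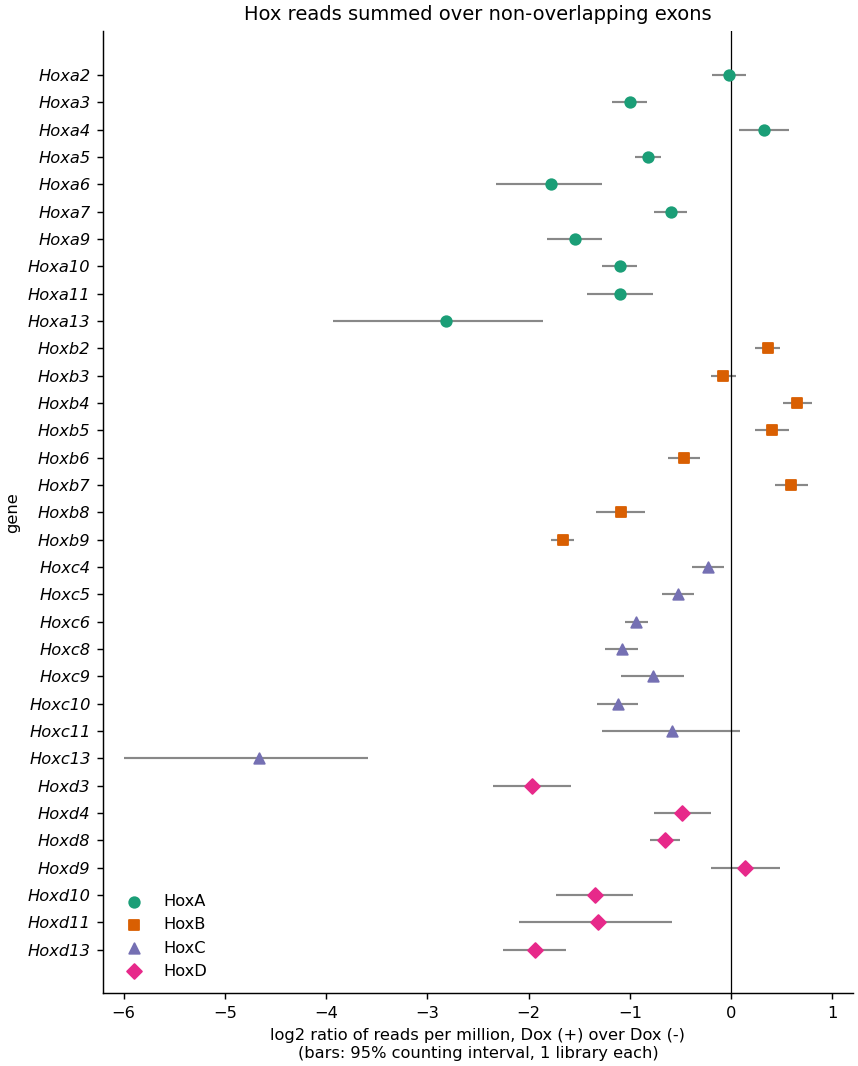
Log2 ratio of depth-scaled Hox reads, Dox (+) over Dox (-), for the 33 genes with at least 50 reads over both libraries, with 95% counting intervals. The interval lies below 0 in 24 genes and above 0 in 5 (Hoxa4, Hoxb2, Hoxb4, Hoxb5 and Hoxb7), and Hoxc13 lies farthest to the left.

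Other genes of HoxA and HoxC were lower in Dox (+). Hoxa3 had 807 and 394 reads in Dox (-) and Dox (+), 2.003-fold fewer (1.77 to 2.26). Hoxa5 was 1.77-fold lower (1.62 to 1.94) and Hoxa7 1.51-fold (1.35 to 1.69). Hoxa6 was 3.43-fold lower (2.41 to 4.99) on few reads, 144 and 41. Hoxc6 was 1.91-fold lower (1.77 to 2.07), Hoxc5 1.43-fold (1.29 to 1.60) and Hoxc9 1.71-fold (1.38 to 2.12). Hoxd8 was 1.57-fold lower (1.42 to 1.74). The macrophage list, given above, was 12955 RPKM in Dox (-) and 468 in Dox (+), and the neural and glial list 138 and 38.4 RPKM. The fibroblast list, 58923 and 19646 RPKM, and the endothelial list, 14.9 and 4.94 RPKM, were lower in Dox (+) as well. These lists thus moved in the same direction as the posterior Hox genes, while the epithelial, muscle and melanocyte sums were higher in Dox (+). The part of these lists in the result was not tested. In the fibroblast list 3 of 8 members, the collagen genes Col1a1, Col1a2 and Col3a1, were more than 4-fold lower in Dox (+). Over all genes tested by the same rule 5.41% were lower. The other members differed by less than 4-fold, with Thy1 1.79-fold and Twist1 1.13-fold higher and Dcn, Fn1 and Pdgfra lower.

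The third comparison sets the Dox (+) library against the MEF library, with the limits of both earlier comparisons. It shares the MEF library with the first comparison and the Dox (+) library with the second, so it adds no independent evidence. Of 12 Hox genes above 10 RPKM, 6 exceeded their MEF level by over 4-fold in Dox (+) (Hoxb5, Hoxb7, Hoxb9, Hoxc4, Hoxc6 and Hoxd8) and 0 lower, against a background of 6.55% higher and 3.4% lower. All 6 passed 10 RPKM through Dox (+) alone and could only be higher there. Hoxb9 and Hoxd8 passed narrowly, at 4.07-fold and 4.11-fold. Over all non-overlapping exons 2 were higher (Hoxb7 and Hoxc6). At 1 RPKM 18 of 29 were higher and 0 lower, against 10.4% and 4.83%. Of these 29, 12 passed through Dox (+) alone, and 6 of the other 17 were more than 4-fold higher. Hoxc6 had 44 reads in MEF and 947 in Dox (+), 22.0-fold more (16.3 to 30.5). Hoxc4 was 35.1-fold higher (21.7 to 60.6) and Hoxb5 14.1-fold (10.6 to 19.2). Hoxa3 was 3.28-fold lower (2.93 to 3.68) and Hoxa7 3.23-fold lower (2.92 to 3.57), and from Hoxa2 to Hoxa7 the sum was 88.3 RPKM in MEF and 43.4 in Dox (+). Hoxb9 was 3.66-fold higher in Dox (+) than in MEF (3.16 to 4.25) and 11.6-fold higher in Dox (-).

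HOX proteins act with TALE-class cofactors, and these were expressed in every library. Of the 8 cofactor genes described here 7 exceeded 10 RPKM in MEF and in Dox (-) and 6 in Dox (+). Meis2 had 183, 101 and 166 RPKM in MEF, Dox (-) and Dox (+). Meis1 had 61.8, 118 and 133 RPKM, and Pbx3 31.0, 95.6 and 86.7 RPKM. Pknox2 alone passed 4-fold, with 22.8 RPKM in MEF, 25.4 in Dox (-) and 4.17 in Dox (+), lower in Dox (+) than in both other libraries. That is 1 of 7 tested in each comparison, where 5.41% of all genes were lower than in Dox (-) and 3.4% lower than in MEF. In Dox (+) Pknox2 was under 10 RPKM, so it could only be lower there. The median log2 ratio of the list was 0.15 for Dox (-) against MEF and 0.14 for Dox (+) against Dox (-).

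The 19 chromatin regulators of Hox clusters, which include the Polycomb proteins that keep Hox genes silent and the Trithorax proteins that keep them active, differed little. The only one past 4-fold was Cbx7, a Polycomb reader of histone methylation, with 1.52 RPKM in MEF, 5.05 in Dox (-) and 11.4 in Dox (+). It was 1 of 19 tested from MEF to Dox (+), where 6.55% of all genes were higher. Cbx7 passed 10 RPKM through Dox (+) alone and could only be higher there. Ezh2, the Polycomb methyltransferase, had 81.8, 61.2 and 42.7 RPKM, and Kmt2a, of the Trithorax group, 22.8, 51.1 and 57.1 RPKM. The list's median log2 ratio was 0.20 for Dox (-) against MEF and 0.22 for Dox (+) against Dox (-).

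Among 11 genes of retinoic acid supply and other factors known to act upstream of Hox genes, 4 passed 4-fold between a pair of libraries. Of 8 tested from MEF to Dox (-), 3 were higher (Aldh1a2, Aldh1a3 and Egr2), all through Dox (-) alone, beside the 8.26% over all genes. Aldh1a2, which makes retinoic acid in the embryonic trunk, had 0.593 RPKM in MEF, 43.6 in Dox (-) and 39.4 in Dox (+). Aldh1a3, another such enzyme, had 2.53, 23.3 and 31.8 RPKM, while Aldh1a1, of the same family, had 83.3, 31.7 and 14.3 RPKM. Both knock-in libraries were thus far above MEF in Aldh1a2 and below it in Aldh1a1. Egr2, which sets hindbrain segments, had 2.39, 16.0 and 12.3 RPKM. The receptors Rara and Rarg were within 2-fold between each pair of libraries, with Rarg at 240, 203 and 346 RPKM. Cdx1 did not exceed 0.0421 RPKM in any of the 3 libraries, and Cdx2 and Cdx4 were not analysed here.

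The list of other positional factors held 48 measured genes, of which 15 were tested in each comparison. From MEF to Dox (-) 6 were higher and 0 lower, where 8.26% of all genes were higher and 1.21% lower. Of the 6 all but Prrx1 passed 10 RPKM through Dox (-) alone and could only be higher. Barx1, a branchial arch and stomach factor, had 0.0654 RPKM in MEF, 16.2 in Dox (-) and 19.0 in Dox (+). Shox2, needed for the upper limb bones, had 1.59, 26.9 and 26.5 RPKM, and Prrx1, of limb and facial mesenchyme, 59.8, 336 and 474 RPKM. Tbx2 had 1.36, 16.2 and 11.5 RPKM, Tbx3 1.32, 16.5 and 19.8 RPKM and Msx2 1.55, 16.1 and 7.99 RPKM. From Dox (-) to Dox (+) none of the 15 passed 4-fold. Tbx15, a factor of trunk dermis and shoulder blade, was highest in MEF at 309 RPKM, against 122 and 98.6 RPKM, and Emx2 had 29.7, 30.4 and 29.2 RPKM. Those 2 genes did not pass the rule and were chosen after their values were seen.

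**Figure D5:**
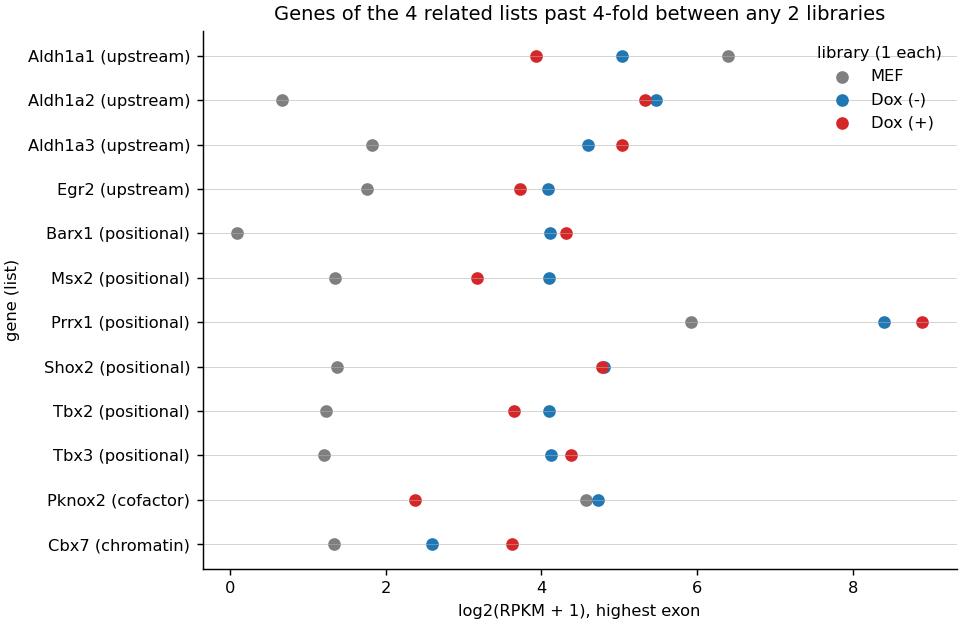
Level on a log2(RPKM + 1) axis of the 12 genes from the lists of upstream factors, positional factors, cofactors and chromatin regulators that exceeded 10 RPKM in at least 1 library and differed more than 4-fold between any pair, with 1 point per library. Most show both knock-in points to the right of MEF, and Aldh1a1 and Pknox2 do not.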

How the data were processed

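Poly(A) RNA was sequenced from MEF, Dox (-), Dox (+) and PMel, with 1 library per condition. Per the study's methods the authors aligned reads to mm10 with TopHat2 2.0.10, counted them per Ensembl exon with bedtools, kept exons of protein coding, pseudogene and lincRNA genes, and deposited RPKM values. Base calls came from bcl2fastq 2.17.1.14 per the submitters' processing notes. RPKM depends on the exon chosen, and short exons carry few reads.

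Values of 3 libraries were used. A further 1 column of values bears a name found in no sample label and was set aside, and PMel and its comparison with MEF were not analysed here. Of 234718 exons, 228132 matched GENCODE M21 and 6586 did not. The level of a gene was its highest exon. Reads were recovered with a whole-number depth divisor, searched between 20 and 80, which made 97.2%, 97.0% and 96.9% of values below 200 reads whole in MEF, Dox (-) and Dox (+). Log2 ratios of levels used a pseudocount of 1 RPKM, which understates changes of low genes. With 1 library per condition there was no test and no p-value. Calls needed more than 10 RPKM in either library and a more than 4-fold difference, and alternatives changed the thresholds, pseudocount, exons and scaling. Of the 132 Hox exons 25, in 13 genes, overlap exons of other annotated genes. The 10 listed noncoding RNAs of the clusters were not analysed here.

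The members and lists were chosen with earlier results of these data known. Named genes were all members, and genes of the cofactor, chromatin, upstream and positional lists past 10 RPKM and 4-fold between any 2 libraries. Others named were chosen after their values were seen. In the cofactor and upstream lists 1 gene each is not reported here, and the counts leave it out. Promoter sequences came from RefSeq (GRCm38.p6). Reading and calling were tested on simulated data. Python 3.11.15, pandas 2.3.3, NumPy 2.4.6, SciPy 1.17.1 and matplotlib 3.10.9 were used.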

Additional observations from a re-analysis of the deposited data

How the results depend on the processing

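No paired analysis was possible because each condition had 1 library and the labels give no shared replicate numbers. For the same reason no replicate could be left out, and the comparison of PMel with MEF was not run. With a threshold of 1 RPKM the Hox genes higher in Dox (-) than in MEF numbered 23, and those higher in Dox (+) than in MEF 18. Those lower in Dox (+) than in Dox (-) numbered 3. The shares over all genes were 12.9%, 10.4% and 8.3% in the same order. In MEF, Dox (-) and Dox (+), 17, 32 and 29 Hox genes stood above this threshold. With a fold threshold of 2 there were 3 genes lower in Dox (+) than in Dox (-), where the share over all genes was 11.1%. By the same rule 1 was lower in Dox (-) than in MEF (Hoxa7) and 2 lower in Dox (+) than in MEF (Hoxa3 and Hoxa7). Both thresholds lowered together, which was chosen after seeing the data, gave 12 genes lower in Dox (+) than in Dox (-), where the share over all genes was 16.3%. It also gave 23 higher and 1 lower in Dox (-) than in MEF, and 21 higher and 3 lower in Dox (+) than in MEF. For the 2-fold counts against MEF the share over all genes was not taken, so those counts have no background. Reads summed over non-overlapping exons, also chosen after seeing the data, left 3 genes higher in Dox (-) than in MEF (Hoxb9, Hoxc6 and Hoxc8) and 2 higher in Dox (+) than in MEF (Hoxb7 and Hoxc6). By that measure 5 genes in Dox (-) and 3 in Dox (+) were above 10 RPKM, because a mean over a gene is lower than its highest exon. Without exons that overlap other genes 2 genes remained above 10 RPKM in MEF (Hoxa3 and Hoxa5). Rescaling to a common median made 1 gene (Hoxa7) lower in Dox (+) than in MEF. It also left 4 genes higher in Dox (+) than in MEF (Hoxb5, Hoxb7, Hoxc4 and Hoxc6) in place of 6. A pseudocount of 1 RPKM left the same 4. No count reversed, and the count of 0 Hox genes higher in Dox (+) than in Dox (-) held under every alternative run. Hoxc12, Hoxd1 and Hoxd12, with under 50 reads over Dox (+) and Dox (-), have counting intervals between these libraries that include equal reads.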
